A study of Mus musculus with 12 samples.

Results

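The genes described here are 43 enzymes of glucose breakdown and the tricarboxylic acid (TCA) cycle, taken by symbol from 2 deposited tables of mouse muscle stem cell (MuSC) RNA-seq. They comprise 18 genes of glycolysis, 10 genes acting on pyruvate and 15 genes of the TCA cycle, out of 16503 genes in one table and 16169 in the other, and all 43 symbols are present in both. The series holds 12 libraries of 1000 sorted cells in 4 groups of 3. In the first comparison, freshly isolated WT MuSCs were set against myoblasts grown for 3 days from WT MuSCs (replicates 04, 05 and 06), which addresses the exit from quiescence in culture. The labels give each myoblast library and 1 fresh MuSC library a shared individual number, taken here to be the mouse. In the second, MuSCs of 3 Nedd4L-cKO mice (Nedd4L fl/fl, Pax7 cre/+) were compared with MuSCs of 3 WT mice (replicates 01, 02 and 03 of each), which addresses the loss of the ubiquitin ligase Nedd4L. All mice were on a C57BL/6 background, and those of the genotype comparison were males aged 5 to 6 weeks. Cre is expressed from the Pax7 locus and removes exon 15, which encodes part of the catalytic domain, so a transcript is still made and the model is specific to cells that express or have expressed Pax7. Whether the WT mice carried a floxed or a Cre allele is not given in the sources used here. MuSCs were sorted from hindlimb muscle as ITGA7+, Hoechst+, CD31-, CD45-, CD11b- and SCA1- cells, and myoblasts were grown in Ham's F10 medium with serum and basic FGF.

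Glycolysis splits glucose into pyruvate in the cytosol. Pyruvate is then either reduced to lactate by lactate dehydrogenase or carried into the mitochondrion, where the pyruvate dehydrogenase (PDH) complex turns it into acetyl-CoA for the TCA cycle. PDH kinases (Pdk genes) phosphorylate and inactivate the PDH complex. Several steps are served by isoenzymes from separate genes, and skeletal muscle is known for its own forms, among them Pfkm, Pgam2 and Eno3. Quiescent MuSCs are generally described as relying on oxidative metabolism, with glycolysis engaged when they leave quiescence.

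Values are RPM, that is, the authors' normalized counts divided by the mean total of the table and multiplied by 1000000. The normalized counts summed to between 33189802 and 50687122 per library. The number of sequenced reads behind a value is unknown, because whole reads could not be recovered from the normalized counts. Nedd4l itself stood at 70.2, 96.4 and 66.7 RPM in WT and 30.2, 36.3 and 22.5 RPM in Nedd4L-cKO MuSCs (log2 fold change -1.37, SE 0.28, adjusted p = 0.0467). In the culture comparison the MuSC marker Pax7 averaged 186 RPM in fresh MuSCs, and Ptprc (CD45) averaged 0.200 RPM there. Of 12 MuSC markers 9 were lower in myoblasts and none was higher. Their sums were 9106, 6416 and 6974 RPM in fresh MuSCs and 839, 935 and 907 RPM in myoblasts. The 7 mural cell markers summed to 1405, 1357 and 1097 RPM in fresh MuSCs and to 2415, 1656 and 1709 RPM in myoblasts. Of these 7, 1 was lower and none was higher, and the part of mural cells in the enzyme values was not tested. The 5 erythroid markers summed to 211, 417 and 23.1 RPM in the fresh MuSCs and to 0.31, 0.55 and 0.93 RPM in myoblasts. Of the 4 tested, 3 were lower in myoblasts, and the part of erythroid RNA in the enzyme values was not tested. Of 10 myoblast markers 6 were higher in myoblasts. Among them, Myod1 averaged 178 RPM in MuSCs and 1379 RPM in myoblasts, and Myog, also a differentiation marker, 659 and 3747 RPM. The 4 proliferation genes of that list (Mki67, Ccnb1, Ccnd1 and Top2a) were not called, with Mki67 at 92.0 and 71.9 RPM. The 9 fibroadipogenic markers summed to 2158, 2347 and 2133 RPM in the fresh MuSCs, most of it Col3a1 (mean 1644 RPM) and Dpt (459.8 RPM), and to 192, 179 and 123 RPM in myoblasts, while Pdgfra averaged 1.19 and 1.33 RPM. Of the 7 tested, 4 were lower and 1 higher in myoblasts, and the part of such cells in the values of the enzyme genes was not tested. In bulk libraries, fewer cells of a type and less RNA per cell cannot be told apart, and this holds for every result given here.

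After 3 days in culture, 25 of the 43 enzyme genes differed from fresh MuSCs (threshold of 0.05 on the adjusted p), of which 19 were higher and 6 were lower, and in 31 of the 43 the groups did not overlap. Over all 15345 genes tested, 42.8% were called, 22.2% higher and 20.6% lower, and 55.2% had groups that did not overlap. Glycolysis carried most of the increase, with 12 of 18 genes higher and 2 lower and a median log2 fold change of 1.33. Among the pyruvate genes 4 of 10 were higher and 1 was lower (median 0.40). In the TCA cycle 3 of 15 were higher and 3 were lower (median -0.16), a share close to the background. The median over all tested genes was 0.04.

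**Figure D1:**
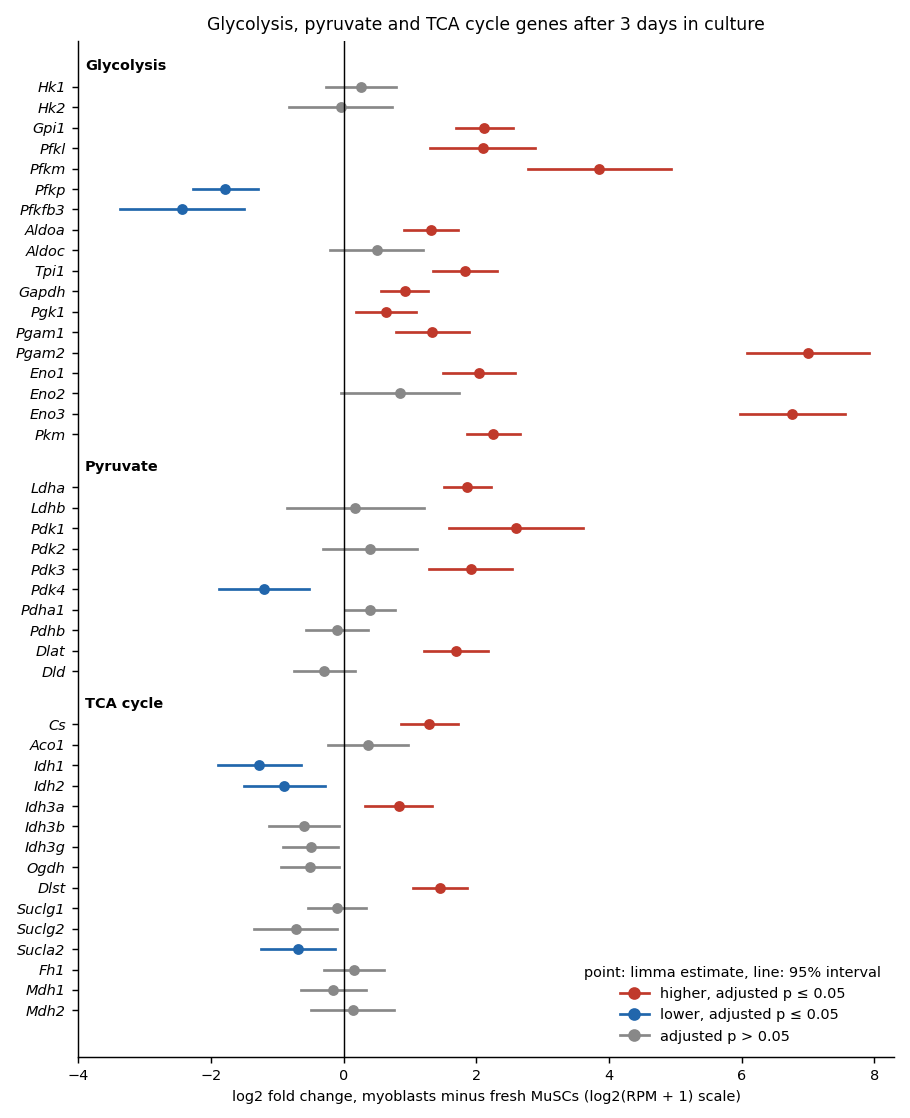
Log2 fold change of each of the 43 genes between myoblasts and fresh MuSCs (horizontal axis, log2(RPM + 1) scale), with points for limma estimates and lines for 95% intervals. Red marks 19 genes called higher, blue 6 called lower and grey 18 not called. Pgam2 and Eno3 lie far to the right of all others, at 7.004 and 6.76.

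The entry step of glycolysis did not pass the test. Hexokinases phosphorylate incoming glucose, and Hk1 measured 95.5, 77.1 and 60.8 RPM in fresh MuSCs and 107, 95.5 and 75.4 RPM in the myoblast libraries, with overlapping groups. The 95% interval of its log2 fold change was -0.27 to 0.79, and that of Hk2 was -0.82 to 0.73. Gpi1, which turns glucose 6-phosphate into fructose 6-phosphate, went from 141, 190.3 and 136 RPM to 610.1, 674 and 738 RPM (log2 fold change 2.12, SE 0.19, adjusted p = 5.39e-05), so that every myoblast library was above every MuSC library.

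The 3 phosphofructokinase genes, which encode the committing step of glycolysis, changed in opposite directions. Pfkp, the platelet-type form, was the main one in fresh MuSCs at 245, 188 and 162 RPM and fell to 65.3, 52.8 and 51.1 RPM in myoblasts (3.52-fold lower; log2 fold change -1.78, SE 0.22, adjusted p = 2.80e-04). Pfkm, the muscle form, rose from 13.2, 12.49 and 4.45 RPM to 80.5, 157 and 245 RPM (15.99-fold; log2 fold change 3.85, SE 0.48, adjusted p = 3.08e-04). Pfkl, the liver-type form, rose from 57.1, 38.8 and 30.3 RPM to 298, 143 and 130.3 RPM (log2 fold change 2.09, SE 0.35, adjusted p = 0.00163). None of these 3 genes overlapped between groups. Per kilobase of transcript, Pfkp made up 76.8, 77.6 and 81.6% of the family in the MuSC libraries and 14.0, 14.2 and 11.3% in the myoblast libraries. The myoblast libraries differed among themselves in what replaced it, since Pfkl was the largest share in replicate 04 and Pfkm in replicates 05 and 06 (Pfkm share 18.6, 45.4 and 58.4%). Pfkfb3 makes fructose 2,6-bisphosphate, the activator of phosphofructokinase, and fell from 46.3, 28.6 and 17.6 RPM to 4.02, 3.14 and 6.92 RPM (log2 fold change -2.43, SE 0.41, adjusted p = 0.00177).

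The steps from fructose bisphosphate to pyruvate rose throughout in their main genes. Aldoa, the aldolase of muscle and most other cells, went from 1434, 1266 and 1062 RPM to 3347, 2713 and 3273 RPM (2.48-fold, log2 fold change 1.31, SE 0.18, adjusted p = 5.06e-04). Tpi1 (triosephosphate isomerase) rose as well (log2 fold change 1.83, adjusted p = 2.13e-04). Gapdh, often used as a reference gene, rose from 1007, 1026 and 876 RPM to 1707, 1809.6 and 1974 RPM (1.89-fold, log2 fold change 0.92, SE 0.16, adjusted p = 0.00189). Pgk1, which makes the first ATP of the pathway, had the smallest called increase of the glycolysis genes (log2 fold change 0.64, adjusted p = 0.0318). Its call was lost without MuSC replicate 04 (adjusted p = 0.0818), MuSC replicate 06 (0.0983) or myoblast replicate 06 (0.0559). Pkm, the pyruvate kinase that closes the pathway, rose from 836, 889.6 and 679 RPM to 4192, 3914 and 3363 RPM (4.77-fold, log2 fold change 2.26, SE 0.18, adjusted p = 2.50e-05). Gene-level values do not separate the M1 and M2 splice forms of Pkm.

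The muscle-specific forms of phosphoglycerate mutase and enolase had the 2 largest changes of the 43 genes. Pgam2 (chr11:5751636-5753760, GRCm39) stood at 2.54, 4.59 and 1.46 RPM in fresh MuSCs and at 296, 444 and 778 RPM in myoblasts, 177-fold higher by the group means (log2 fold change 7.004, SE 0.41, adjusted p = 5.93e-06). The groups were far apart, and the myoblast libraries also spread over a wide range, with replicate 04 lowest and replicate 06 highest. Its general partner Pgam1 rose from 138, 126 and 143 RPM to 473, 346 and 246 RPM (log2 fold change 1.34, adjusted p = 0.00244), and among the myoblast libraries the order was the opposite one. Eno3 (chr11:70546593-70553340), the muscle enolase, was at 10.48, 28.7 and 11.3 RPM and then at 1619, 1569 and 2109.8 RPM (105-fold; log2 fold change 6.76, SE 0.35, adjusted p = 3.36e-06). Eno1, the general enolase, rose from 747, 1169 and 784 RPM to 4753, 3022 and 3323 RPM (log2 fold change 2.04, adjusted p = 2.33e-04). Other fiber genes moved with them. Of 16 further myofiber markers, 11 were higher and none was lower, and their summed level was 666, 809 and 543 RPM in the MuSC libraries and 10588, 15192 and 24944 RPM in the myoblast libraries. Acta1, the skeletal muscle actin, averaged 177 and 10117 RPM, while Myh4, the myosin of the fastest fibers, averaged 3.25 and 1.13 RPM. The part of differentiating cells in the Pgam2 and Eno3 values was not tested.

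The upstream sequences of Pgam2 and of its partner Pgam1 are shown because the 2 genes encode the same activity and reached opposite ends of the family in fresh MuSCs. Ldha is added as the lactate-forming enzyme whose promoter holds an E-box pair. They are RefSeq windows before the transcription start in build GRCm38.p6, written 5′ to 3′ on the gene's strand, and the Ldha stretch stops where an annotated transcript begins. Capitals mark matches on either strand to the hypoxia-element core (ACGTG or GCGTG), the E-boxes CACGTG and CAGCTG, and the MEF2 site.
Pgam2 (chr11:5803797-5804046, minus strand): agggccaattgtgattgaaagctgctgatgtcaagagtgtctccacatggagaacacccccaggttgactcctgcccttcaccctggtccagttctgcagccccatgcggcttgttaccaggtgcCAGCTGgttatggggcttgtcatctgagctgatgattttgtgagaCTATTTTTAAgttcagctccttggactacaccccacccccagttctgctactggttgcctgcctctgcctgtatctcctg
Pgam1 (chr19:41911621-41911870, plus strand): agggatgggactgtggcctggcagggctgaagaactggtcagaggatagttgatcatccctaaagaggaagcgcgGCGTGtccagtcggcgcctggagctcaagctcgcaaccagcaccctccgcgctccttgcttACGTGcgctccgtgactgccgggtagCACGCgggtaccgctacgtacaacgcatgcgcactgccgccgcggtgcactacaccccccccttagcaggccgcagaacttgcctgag
Ldha (chr7:46845554-46845707, plus strand): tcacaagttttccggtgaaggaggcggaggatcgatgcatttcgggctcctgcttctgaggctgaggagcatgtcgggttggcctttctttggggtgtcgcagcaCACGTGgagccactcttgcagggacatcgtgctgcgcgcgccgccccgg
The Pgam2 window held 1 CAGCTG E-box and 1 MEF2 match and no hypoxia core. The Pgam1 window held 3 hypoxia cores and none of the other motifs. The full 250-base Ldha window held 2 CACGTG boxes, each of which contains an ACGTG core, of which 1 lies in the stretch printed. That full window had 5 hypoxia-core matches counted over both strands, and a CACGTG box is matched on both.

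Across the 42 of 43 genes with a window of 250 bases, 69.0% held a hypoxia core, compared with 38.6% of all 32851 promoter windows. These windows were also richer in G and C, with a median of 61.6% against 52.4%. By response, the core was present in 61.1% of the windows of genes called higher in myoblasts, in 83.3% of those called lower and in 72.2% of those not called. CAGCTG was found in 4 of 18 windows of genes called higher (22.2%), namely Gpi1, Pgam2, Pkm and Pdk1, in 0 of 6 of those called lower and in 1 of 18 of those not called (5.56%). Over the 42 windows its share was 11.9%, against 13.0% of all windows. A MEF2 match was present in 1 of 42 windows, that of Pgam2, against 2.92% of all windows. CACGTG, the box for which Ldha was shown, was present in 2 of 42 windows (4.76%), against 6.02% of all windows.

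Isoenzyme make-up was compared within each library as the log2 ratio of 2 genes. A scaling factor common to all genes of a library cancels in such a ratio, except through the pseudocount. The authors' factors are specific to gene and library and need not cancel. In 8 of 14 pairs the ratios did not overlap between MuSCs and myoblasts, each with an exact two-sided permutation p of 0.1, the smallest that 3 against 3 libraries can give (0.175 after adjustment over the 14 pairs). No smaller p can be reached in this design. Among all single genes tested the share without overlap was 55.2%, and no such share was computed for pairs of genes. Some pairs share a gene, such as Pdk2, so the pairs are not independent. The Pgam2 to Pgam1 ratio went from -5.29, -4.50 and -5.87 to -0.68, 0.36 and 1.66, a difference of 5.67 on the log2 scale. The Eno3 to Eno1 ratio shifted by 4.72 and the Pfkp to Pfkm ratio by -5.64. Per kilobase, Pgam2 accounted for 3.67, 7.01 and 2.07% of phosphoglycerate mutase transcripts in MuSCs and for 56.4, 72.6 and 86.7% in myoblasts. Eno3 reached 31.0, 40.6 and 45.5% of enolase transcripts in myoblasts, so Eno1 stayed the larger share in each of the 3 libraries. Aldoc and Eno2 contributed little. Aldoc was listed at 0 in MuSC replicates 04 and 05 and did not exceed 1.43 RPM in any library of the comparison, and Eno2 did not exceed 4.54 RPM.

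**Figure D2:**
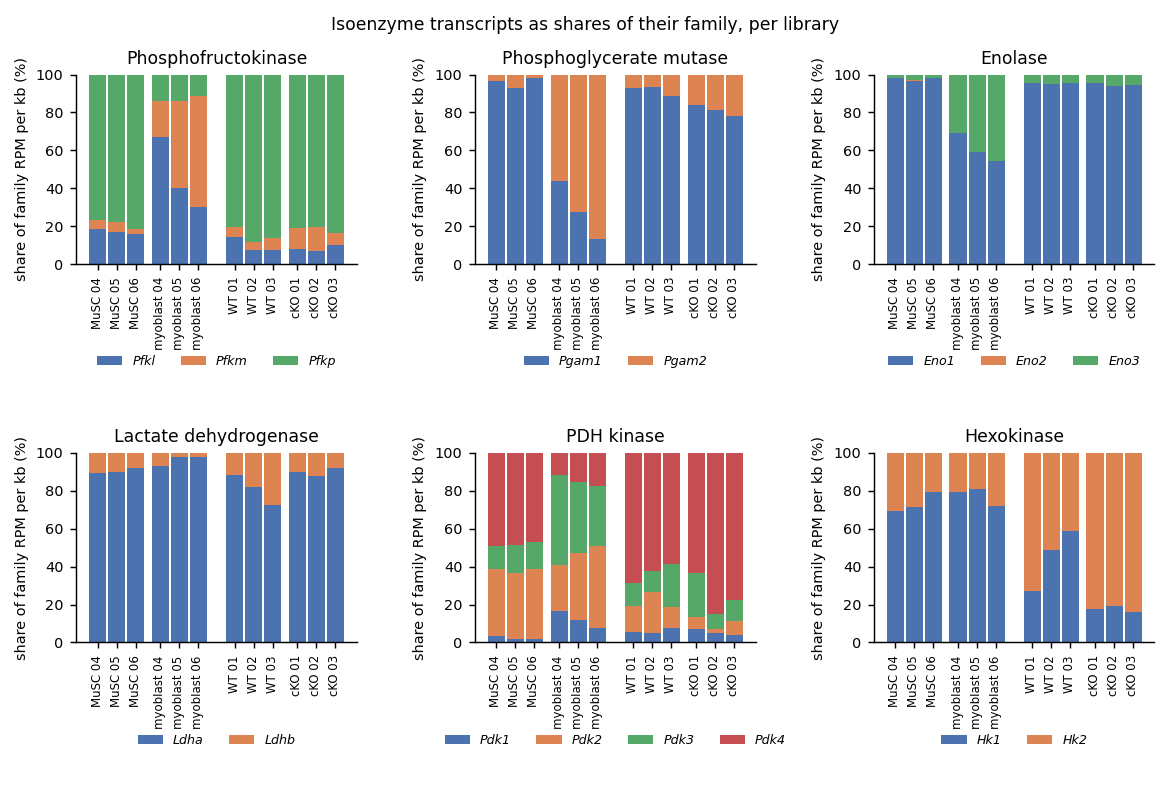
Share of each isoenzyme in its family's RPM per kilobase of transcript (vertical axis, percent), one bar per library, with MuSC and myoblast libraries on the left of each panel and WT and Nedd4L-cKO MuSC libraries on the right. In the myoblast bars the Pfkp share falls to between 11.3% and 14.2% and Pgam2 and Eno3 appear as large shares. In the Nedd4L-cKO bars Hk1 is at 15.9% to 19.1% of hexokinase.

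At the pyruvate branch, lactate dehydrogenase and the PDH kinases changed and most PDH subunits did not pass the test. Ldha, the form that favors lactate production, rose from 684, 847 and 744 RPM to 2780.2, 2764 and 2720.5 RPM (3.63-fold, log2 fold change 1.87, SE 0.16, adjusted p = 3.52e-05). Ldhb, the heart-type form, was at 79.0, 93.1 and 63.8 RPM in MuSCs and 207, 61.3 and 53.6 RPM in myoblasts, where replicate 04 stood apart from the other two and the groups overlapped. The Ldhb to Ldha ratio differed by -1.69 without overlap between groups. Pdk1, a PDH kinase known as a hypoxia-responsive gene, rose from 9.65, 4.59 and 2.59 RPM to 47.2, 40.1 and 22.9 RPM (log2 fold change 2.60, SE 0.45, adjusted p = 0.00189). Pdk3 rose from 16.5, 15.9 and 10.3 RPM to 63.8, 58.4 and 45.2 RPM (log2 fold change 1.91, SE 0.27, adjusted p = 6.76e-04). Pdk4, the kinase known to be induced by fasting and fatty acids, fell from 103, 77.5 and 52.0 RPM to 23.8, 36.7 and 37.2 RPM (log2 fold change -1.20, SE 0.30, adjusted p = 0.0117). Pdk2 was at 45.3, 33.7 and 25.2 RPM and 30.9, 51.0 and 56.9 RPM, with overlap. Per kilobase, Pdk4 held the family's leading share in the MuSC libraries (49.4, 48.4 and 47.0%) and fell to 11.6, 15.4 and 17.3% in myoblasts. There the largest share was that of Pdk3 in replicates 04 and 05 and that of Pdk2 in replicate 06. The Pdk3 share rose from 12.1, 15.2 and 14.2% to 47.5, 37.5 and 32.1%, and the Pdk1 share rose as well. The Pdk2 share overlapped between the groups, at 35.3, 34.3 and 37.1% in MuSCs and 24.5, 34.98 and 43.03% in myoblasts.

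Of the 4 PDH subunits, Dlat, the acetyltransferase core (E2), was the only one called. It rose from 64.7, 73.5 and 61.0 RPM to 280.2, 196 and 185 RPM (3.32-fold, log2 fold change 1.70, SE 0.21, adjusted p = 3.34e-04). The E1 subunits Pdha1 and Pdhb had log2 fold changes of 0.40 (adjusted p = 0.0801) and -0.10 (95% interval -0.57 to 0.37). The shared E3 subunit Dld had -0.29 (95% interval -0.75 to 0.16). For Pdha1 each myoblast library was above each MuSC library, and with each library scaled to its own total it was called (adjusted p = 0.0239).

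The TCA cycle genes split between higher, lower and not called, and the split ran through single complexes. Cs, citrate synthase, the entry enzyme, rose from 111, 156 and 122 RPM to 289, 345 and 315 RPM (2.44-fold, log2 fold change 1.29, SE 0.19, adjusted p = 8.15e-04). Dlst, the E2 core of the 2-oxoglutarate dehydrogenase complex, rose from 60.0, 61.1 and 58.7 RPM to 148, 179.5 and 172 RPM (log2 fold change 1.45, SE 0.18, adjusted p = 2.87e-04). Its E1 partner Ogdh was at 234, 207 and 160.0 RPM and 137, 149 and 132 RPM, lower in every myoblast library but not called (log2 fold change -0.51, adjusted p = 0.0640). A similar split was seen in the NAD-dependent isocitrate dehydrogenase. Its catalytic subunit Idh3a rose from 285, 293 and 312 RPM to 736, 454 and 438 RPM (log2 fold change 0.83, SE 0.22, adjusted p = 0.0160), while the other subunits Idh3b and Idh3g had log2 fold changes of -0.60 and -0.50 (adjusted p = 0.0659 and 0.0560). Per kilobase, Idh3a was 27.1, 27.4 and 30.3% of the 3 subunits in MuSCs and 52.2, 49.97 and 49.7% in myoblasts. The Idh3a call was lost without MuSC replicate 05 (adjusted p = 0.0529).

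Both NADP-dependent isocitrate dehydrogenases were lower. Idh1, the cytosolic enzyme, fell from 141, 269.7 and 263 RPM to 103, 91.9 and 73.5 RPM (log2 fold change -1.27, SE 0.28, adjusted p = 0.00596). Idh2, the mitochondrial enzyme, fell from 602, 559 and 420.2 RPM to 420.1, 238 and 220.0 RPM (log2 fold change -0.89, SE 0.27, adjusted p = 0.0261), a call that did not hold without MuSC replicate 04 or 05 or myoblast replicate 05 or 06 (adjusted p 0.0797, 0.0832, 0.0907 and 0.0812). Sucla2, the ATP-forming succinyl-CoA synthetase subunit, was at 607, 528 and 523 RPM and 502, 261 and 302 RPM and passed only at the edge (log2 fold change -0.69, SE 0.25, adjusted p = 0.0497), and 11 of 15 alternatives lost the call. Suclg2, the GTP-forming subunit, was close to the threshold from the other side (log2 fold change -0.72, adjusted p = 0.0626) and was called with the mouse as a block (adjusted p = 0.0437). Suclg1, Fh1, Mdh1, Mdh2 and the cytosolic aconitase Aco1 were not called. Mdh2, among the most abundant genes of the set, had a 95% interval of -0.49 to 0.76, with myoblast replicate 04 at 1782 RPM and the other two at 890.3 and 930.3 RPM. Myoblast replicate 04 had the highest level of its group in 11 of the 15 TCA genes, and without it 10 rather than 6 of the 43 genes were called lower, the added ones being Dld, Idh3b, Idh3g and Suclg2.

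**Figure D3:**
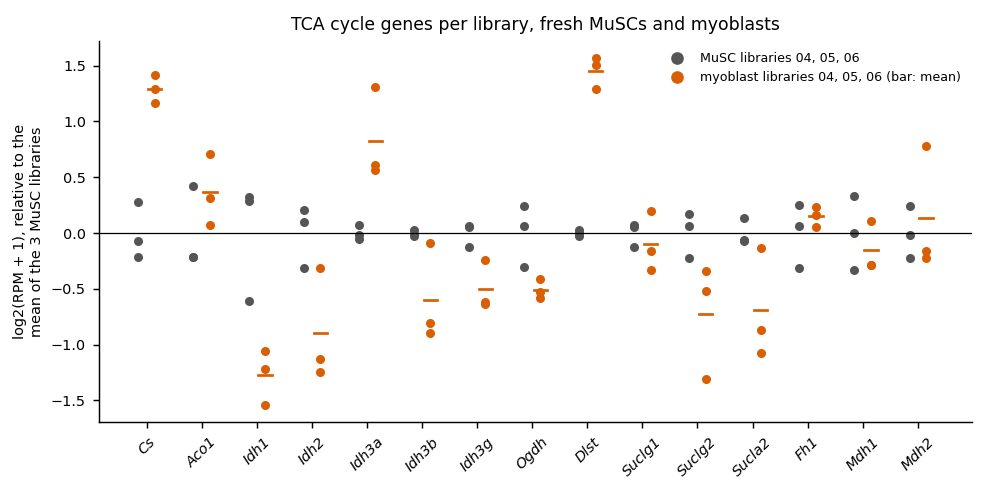
Each TCA cycle gene in single libraries (vertical axis, log2(RPM + 1) minus the mean of the 3 MuSC libraries), with grey points for MuSC and orange points for myoblast libraries and an orange bar at the myoblast mean. Cs and Dlst sit highest and Idh1 lowest among the myoblast points, and for Idh3a, Mdh2 and Sucla2 1 myoblast library, replicate 04, lies above the other two.

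Summed over their genes, glycolysis transcripts made up 5435, 5787 and 4544 RPM of the MuSC libraries and 18954, 16239 and 17819 RPM of the myoblast libraries (3.36-fold by the means). The pyruvate genes went from 2052, 2091 and 1882 RPM to 4594, 4008 and 4064 RPM. The TCA genes stood at 4304, 4802 and 4084 RPM and 5508, 3659 and 3596 RPM, with overlap between the groups. Ranked per kilobase of transcript, Aldoa was first in MuSCs (829.8 RPM per kb), followed by Mdh2 (697) and Gapdh (683), the last 2 being closer to each other than their spread. In myoblasts Aldoa (2059 RPM per kb) was followed by Ldha (1735), Eno1 (1613) and Pkm (1562), and Eno3 moved from 9.66 to 1014 RPM per kb.

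**Figure D4:**
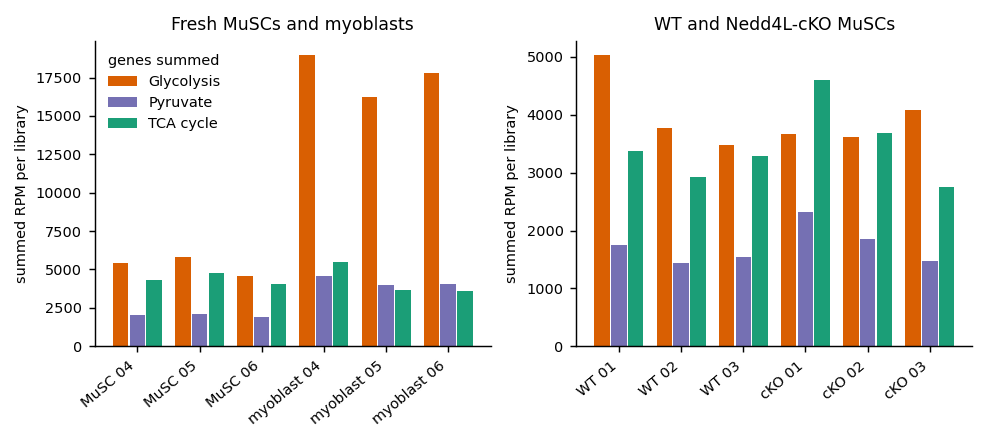
RPM summed over the 18 glycolysis, 10 pyruvate and 15 TCA cycle genes (vertical axis from 0, scale differing between panels), one cluster of bars per library. The glycolysis bars of the 3 myoblast libraries stand between 16239 and 18954 RPM, above 5787 RPM, the highest MuSC library. In the right panel the WT and Nedd4L-cKO bars overlap for all 3 groups.

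Genes that feed or drain the pathway were read from fixed lists. Their counts stand beside 22.2% of all genes tested called higher and 20.6% called lower. Of 9 tested genes of a transport list, 5 were higher and none was lower. The list holds glucose and monocarboxylate carriers, but also the carrier chaperone Bsg, which was not called, and the myo-inositol transporter Slc5a3, which was higher (log2 fold change 1.78, adjusted p = 0.00822). The largest increases were those of the lactate exporter Slc16a3 (log2 fold change 4.503, adjusted p = 1.95e-05), the glucose transporter Slc2a1 (log2 fold change 2.38, adjusted p = 7.34e-04) and the insulin-responsive Slc2a4 (log2 fold change 2.09, adjusted p = 0.00571). Of 8 pentose phosphate genes 3 were higher and none was lower, namely Pgd (log2 fold change 2.65, adjusted p = 4.09e-05), G6pdx (log2 fold change 2.00, adjusted p = 2.53e-04) and Tkt (log2 fold change 1.47, adjusted p = 0.00522). Of 12 other glycolysis genes tested, 2 were higher, Tigar (log2 fold change 1.81, adjusted p = 0.00947) and Pgm1 (log2 fold change 1.52, adjusted p = 0.00144), and 3 were lower, Hkdc1 (log2 fold change -2.84, adjusted p = 0.00338), Pfkfb2 (log2 fold change -1.73, adjusted p = 0.00171) and Bpgm (log2 fold change -1.07, adjusted p = 0.0401). Of 23 other pyruvate and TCA genes 10 were higher and 6 lower. The largest increases were those of the malic enzyme Me1 (log2 fold change 3.604, adjusted p = 1.21e-04), the aspartate aminotransferase Got2 (log2 fold change 2.63, adjusted p = 4.28e-05) and pyruvate carboxylase, Pcx (log2 fold change 2.39, adjusted p = 0.00890). Decreases included those of the PDH phosphatase Pdp2 (log2 fold change -2.32, adjusted p = 0.00266) and of Me3 (log2 fold change -1.79, adjusted p = 0.00146). Named after their values were seen, both genes of the mitochondrial pyruvate carrier were also lower, Mpc1 (log2 fold change -1.39, adjusted p = 4.97e-04) and Mpc2 (log2 fold change -0.77, adjusted p = 0.0212).

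Among 22 regulators, 4 were higher and 5 lower, shares near the background of 22.2% higher and 20.6% lower. Egln3, a prolyl hydroxylase of the HIF pathway, went from 0.550, 1.10 and 0.875 RPM to 105, 110.0 and 93.8 RPM (log2 fold change 5.83, adjusted p = 1.99e-06). It was followed by the PGC-1α gene Ppargc1a (log2 fold change 1.66, adjusted p = 0.0308) and its partner Esrra (log2 fold change 1.55, adjusted p = 0.0188). The largest decreases were those of Mycn (log2 fold change -4.78, adjusted p = 1.47e-05), Foxo3 (log2 fold change -2.62, adjusted p = 2.43e-04) and Myc (log2 fold change -2.45, adjusted p = 1.95e-04), Myc being a known activator of glycolysis genes. A list of 15 hypoxia-response genes did not go one way, with 4 higher and 5 lower and a median log2 fold change of 0.01. Besides Egln3, which is on both lists, Bnip3 (log2 fold change 2.73, adjusted p = 3.21e-05) and Ak4 (log2 fold change 1.83, adjusted p = 0.00791) had its largest increases, and Ndrg1 (log2 fold change -3.44, adjusted p = 2.75e-04), Mxi1 (log2 fold change -1.83, adjusted p = 0.00425) and P4ha2 (log2 fold change -1.53, adjusted p = 8.94e-04) its largest decreases.

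In the comparison of Nedd4L-cKO with WT MuSCs, none of the 42 enzyme genes tested was called by limma at the same threshold, where 0.784% of 15304 genes were called. Eno2 was not tested, since it did not reach 10 normalized counts in 3 libraries. At an unadjusted p under 0.05, 9 of the 42 passed (21.4%), compared with 14.6% of all genes tested. The 9 were 3 genes higher in Nedd4L-cKO MuSCs, against a background of 7.51%, and 6 lower, against 7.13%. Without Nedd4L-cKO replicate 03 the number was 14, with 8 higher and 6 lower, where 18.7% of all genes passed. By step the 9 genes found with all libraries were 6 of 17 glycolysis genes, 2 of 10 pyruvate genes and 1 of 15 TCA genes. All 9, and no other tested member, had groups that did not overlap, which was the case for 19.3% of all genes. The median log2 fold change over the 42 was -0.01, and over all genes it was 0.00.

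The 6 genes with lower values, none of them past the adjusted threshold, were Hk1, Pfkl, Pfkp and Pkm of glycolysis and Pdk2 and Dlat at the pyruvate step, while other genes of the same steps overlapped between groups, among them Hk2, Pfkm, Pfkfb3, Pdk4, Pdhb and Dld. Hk1 (chr10:62104621-62215687, GRCm39) measured 48.7, 48.1 and 47.0 RPM in WT MuSCs, against 11.1, 25.6 and 24.3 RPM with Nedd4L deleted (2.36-fold lower by the means; log2 fold change -1.28, SE 0.32, adjusted p = 0.09997, unadjusted p = 0.00196). The WT values were within 2 RPM of each other and each Nedd4L-cKO library was far below them. Hk2 did not share this pattern, with 239, 91.6 and 60.2 RPM in WT against 96.1, 197 and 235 RPM in Nedd4L-cKO MuSCs. Pfkp, the leading phosphofructokinase of these cells, measured 153, 185 and 152 RPM in WT against 65.7, 99.4 and 81.5 RPM in Nedd4L-cKO MuSCs (log2 fold change -0.99, SE 0.25, adjusted p = 0.0994). The low-level Pfkl was at 25.9, 15.1 and 12.3 RPM and 6.34, 8.43 and 9.42 RPM (log2 fold change -0.998, adjusted p = 0.224), whereas Pfkm overlapped (log2 fold change -0.13, adjusted p = 0.894). Pkm was at 704, 561 and 437 RPM in WT against 274, 406 and 349 RPM in Nedd4L-cKO MuSCs (log2 fold change -0.71, adjusted p = 0.2505).

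The 2 pyruvate genes of this kind were Pdk2 and Dlat. Pdk2 had the largest difference of the 42 genes and the smallest unadjusted p. This gene (chr11:94914929-94932242) was at 13.4, 17.2 and 10.3 RPM in WT against 4.498, 2.60 and 5.73 RPM in Nedd4L-cKO MuSCs (log2 fold change -1.49, SE 0.36, adjusted p = 0.0921, unadjusted p = 0.00150). Dlat was at 62.5, 55.4 and 39.4 RPM and 20.1, 27.1 and 36.3 RPM (log2 fold change -0.90, adjusted p = 0.199). Pdk4, the most abundant PDH kinase of these MuSCs, overlapped between groups at 109, 81.0 and 86.3 RPM and 70.9, 152 and 98.0 RPM. When only genes averaging 5 RPM or more were tested, Hk1, Pfkp and Pdk2 were called lower (adjusted p = 0.0211, 0.0396 and 0.0302), with 3.27% of 10049 genes called.

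Of the 3 genes with higher values, Pgam2 was the clearest. It measured 4.57, 4.15 and 5.91 RPM in WT against 12.7, 12.9 and 13.4 RPM in Nedd4L-cKO MuSCs (2.66-fold by the means; log2 fold change 1.26, SE 0.31, adjusted p = 0.0970), and the Nedd4L-cKO values lay close together. Eno3, its companion in the culture comparison, did not differ beyond the spread here (22.5, 17.1 and 18.6 RPM and 23.9, 22.6 and 18.9 RPM, 95% interval of the log2 fold change -0.43 to 0.76). Tpi1 was at 200.3, 145 and 161 RPM and 308, 221 and 233 RPM (log2 fold change 0.59, adjusted p = 0.313). Fh1, the fumarase of the TCA cycle, was at 93.0, 103 and 99.3 RPM and 190.0, 131 and 121 RPM (log2 fold change 0.55, adjusted p = 0.341). Ldha and Mdh1 were just outside the threshold, at 619.5, 399 and 377 RPM and 921, 617 and 569 RPM for Ldha (unadjusted p = 0.0574) and with a log2 fold change of 0.66 for Mdh1 (unadjusted p = 0.0591). The log2 fold changes of the 33 genes with an unadjusted p above 0.05 ran from -0.40 (Ldhb) to 0.66 (Mdh1).

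**Figure D5:**
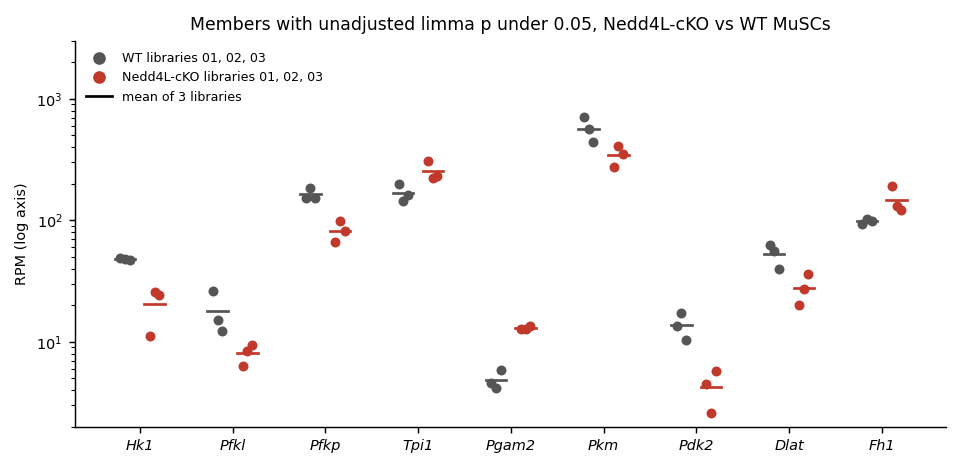
RPM in single libraries (log axis) of the 9 enzyme genes with an unadjusted limma p under 0.05 between Nedd4L-cKO (red) and WT (grey) MuSCs, with lines at the means of 3 libraries. Points of the 2 groups do not overlap in any of the 9, and the Pgam2 points of the Nedd4L-cKO group fall between 12.7 and 13.4 RPM.

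Other features of the libraries differed along with genotype. Of 16 myofiber markers other than Pgam2 and Eno3, 9 were higher and 1 was lower at an unadjusted p under 0.05, and their sum was 643, 411 and 409 RPM in WT and 863, 696 and 671 RPM in Nedd4L-cKO libraries, without overlap. Actn3 was the lower one (log2 fold change -1.47, adjusted p = 0.0327). The 7 mural cell markers summed to 1293, 1186 and 1967 RPM and 2182, 2558 and 3312 RPM, and 5 of them were higher at that level. Of 12 MuSC markers 1 was called lower, and 4 were lower and none higher at the unadjusted level. Of 10 myoblast markers 1 was called higher, and 3 were higher and none lower at the unadjusted level. Over all genes 7.13% were lower and 7.51% higher at that level. The sums of both marker lists overlapped between genotypes. The 13 mitochondrially encoded mRNAs were all higher at an unadjusted p under 0.05 and summed to 27606, 29973 and 38740.0 RPM and 66262, 59029 and 57413 RPM. The 5 erythroid markers varied within both genotypes, with sums of 0.11, 499 and 159 RPM in WT and 7.99, 0.065 and 1096 RPM in Nedd4L-cKO libraries. The part of these features in the values of the enzyme genes was not tested. Transcript length and log2 fold change had a Spearman correlation of -0.17 across 15248 genes, which are not independent replicates. The median deviation of genes with transcripts under 1500 bases was -0.084, -0.18 and -0.015 in the WT libraries and 0.26, 0.052 and -0.037 in the Nedd4L-cKO libraries on the log2 scale, so it was highest in Nedd4L-cKO replicate 01, and replicate 03 lay within the WT range. With each library's trend on transcript length removed, an alternative added after seeing the data, the log2 fold changes were -1.23 for Hk1, -0.94 for Pfkp, -1.49 for Pdk2 and 1.08 for Pgam2, and 10 members rather than 9 passed the unadjusted threshold.

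Isoenzyme ratios did not overlap between genotypes in 4 of 14 pairs, again each with the smallest exact permutation p of 0.1 (0.255 after adjustment over the pairs). Among single genes the share without overlap was 19.3%, and none was computed for pairs. The Hk2 to Hk1 ratio was 2.27, 0.92 and 0.35 in WT and 3.00, 2.90 and 3.22 in Nedd4L-cKO libraries on the log2 scale, a difference of 1.86. Per kilobase, Hk1 made up 27.1, 48.9 and 58.7% of hexokinase transcripts in WT and 17.4, 19.1 and 15.9% in Nedd4L-cKO libraries. The wide WT spread came from Hk2, which was highest in WT replicate 01. The other pairs were Pdk4 to Pdk2 (difference 1.65), Pgam2 to Pgam1 (1.19) and Pfkp to Pfkm (-0.86). In the fresh WT MuSCs of the culture comparison the Hk2 to Hk1 ratio averaged -0.60, against 1.18 in these WT libraries. Pdk4 to Pdk2 averaged 1.12 there and 2.68 here, Pgam2 to Pgam1 -5.22 and -4.26, and Pfkp to Pfkm 4.28 and 3.95. For Hk2 to Hk1 and Pdk4 to Pdk2 these WT groups did not overlap, and the cause was not tested. Summed levels overlapped, with glycolysis at 5028, 3777 and 3479 RPM in WT and 3662, 3624 and 4079 RPM in Nedd4L-cKO libraries. The TCA sums were 3381, 2933 and 3281 RPM and 4609, 3681 and 2745 RPM, so that the Nedd4L-cKO libraries covered a wider range than the WT libraries.

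Among the neighboring lists, 1 pyruvate and TCA gene and 1 regulator were called between genotypes. Pdp2, the phosphatase that reactivates the PDH complex, fell from 55.8, 56.4 and 34.3 RPM to 10.6, 14.2 and 14.5 RPM (log2 fold change -1.80, SE 0.29, adjusted p = 0.0221). Epas1, which encodes HIF-2α, rose from 4.83, 3.31 and 8.87 RPM to 18.5, 21.5 and 32.3 RPM (log2 fold change 1.96, SE 0.38, adjusted p = 0.0424). No gene of the other glycolysis, transport, pentose phosphate or hypoxia-response lists was called by limma. At an unadjusted p under 0.05 these lists held 3 of 13, 2 of 9, 0 of 8 and 3 of 14 tested genes, beside 14.6% of all genes. The smallest unadjusted p values of these lists were those of Ldhd (0.0249, log2 fold change -0.81), Slc5a3 (0.00282, -1.09), Rpe (0.0750, 0.63) and P4ha1 (7.18e-04, 1.16).

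The 9 genes are set beside their values in the culture comparison, which used other libraries. Pfkp had a negative log2 fold change in both (-0.99 in Nedd4L-cKO MuSCs and -1.78 in myoblasts), and Pgam2 and Tpi1 had positive ones in both. Pkm (-0.71 and 2.26), Pfkl (-0.998 and 2.09) and Dlat (-0.90 and 1.70) had negative values between genotypes and rose in myoblasts. Hk1, Pdk2 and Fh1 were not called in myoblasts. Across the 42 genes the Spearman correlation of the 2 log2 fold changes was -0.07.

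Some values may include reads of near-identical copies. Eno1b, a retrocopy of Eno1, was listed at 3.88, 5.81 and 6.19 RPM in fresh MuSCs and at 35.2, 18.0 and 24.0 RPM in the myoblast libraries, and Pgam1-ps2 did not exceed 8.91 RPM. Ldha-ps3 and Gapdh-ps16 stayed under 1 RPM, as did a second row named Aldoa, and all are small beside their parent genes. Between Nedd4L-cKO and WT MuSCs, Eno1b averaged 11.6 and 11.04 RPM.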

How the data were processed

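RNA from 1000 sorted cells per library was sequenced, and the authors quantified transcripts with Kallisto v0.46.1 against GENCODE vM28 (GRCm39) and summed them to genes. The deposited values used here are the authors' normalized counts (a signal unit): tximport estimates divided by DESeq2 gene- and library-specific factors, so they carry no read depth. Of the values up to 30, between 47.1% and 64.6% per library were whole multiples, within 0.05, of the best-matching step, so reads were not recovered and no count test was run. Fold changes and p-values of the authors' own comparisons are also in the tables and were not used, nor were 18 further per-sample columns.

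RPM were obtained with the mean total of the 6 libraries of a table. Genes reaching 10 normalized counts in 3 or more libraries were tested within each table by limma 3.58.1 (R 4.3.3; trend and robust options) on log2(RPM + 1), a scale that understates changes of low genes, with Benjamini-Hochberg adjustment over all genes tested and a threshold of 0.05. This differs from a count test because of the unit. Replicates are separate mice in the genotype comparison. In the culture comparison, same-numbered libraries also share an individual number in the labels, which was taken as the mouse though no source used here says so outright, and their deviations from the group means correlated at -0.03, -0.01 and 0.02. Isoenzyme ratios were compared by exact two-sided permutation tests. Values per kilobase used the length of each gene's Ensembl canonical transcript in a later GENCODE release. The transcript lengths expressed in these cells were not used, so shares and ranks per kilobase are approximate. Promoter windows are from RefSeq (GRCm38.p6) and served for sequence only. The fit was also run on simulated whole counts, which differ in unit from these normalized counts, and no result given here rests on that run. All 43 genes are named, with the neighboring lists given by counts and at most 3 called genes of largest change in each direction, or between genotypes every called gene or the one of smallest p. Single marker genes, Mpc1 and Mpc2 were named after their values were seen, and some genes of the neighboring lists are not reported here. Members and lists were chosen with earlier results of these data known. Alternatives covered scaling, pseudocount, filters, variance model, replicate block and left-out libraries. Removal of trends on transcript length and GC content was added after seeing the data. Python 3.11.15, pandas 2.3.3 and scipy 1.17.1 were used.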

Additional observations from a re-analysis of the deposited data

How the results depend on the processing

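In the culture comparison the number of genes called stayed between 20 (also requiring a log2 fold change of at least 1 in size and a mean of at least 5 RPM) and 29 of 43 over the alternatives, and no called gene changed direction. Without single libraries it ranged from 22 to 29, the latter without myoblast replicate 04. Calls lost were those of Sucla2 (11 alternatives, adjusted p 0.0522 to 0.179), Pgk1 (4, 0.0559 to 0.0983), Idh2 (4, 0.0797 to 0.0907) and Idh3a (1, 0.0529). Calls gained were those of Dld (1 alternative), Idh3b (2), Idh3g (3), Ogdh (2), Pdha1 (2) and Suclg2 (3), with adjusted p from 0.0022 to 0.0486. Scaling each library to its own total moved the median log2 fold change of all genes from 0.04 to 0.14. With the replicate block (the mouse), 26 genes were called, the added one being Suclg2 (adjusted p = 0.0437), and no other call changed. In the genotype comparison the same numbers are different mice (correlations 0.02, -0.02 and -0.18), and the replicate block gave 0 called by limma and 8 at an unadjusted p under 0.05.

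In the genotype comparison 3 genes were called with a mean of at least 5 RPM, and 0 under all other alternatives. The 9 genes at an unadjusted p under 0.05 became 14 without Nedd4L-cKO replicate 03, when 8 rather than 3 were higher, and the range over left-out libraries was 6 to 14. The cause was not tested.

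Of 1266 alternative log2 fold changes, 56 changed sign, in 23 genes and comparisons with a value of at most 0.31 in size, none of them called. With own-total scaling these were Hk2 0.087, Pdhb 0.040 and Suclg1 0.036 in culture and Pgam1 -0.055, Cs -0.12, Ogdh -0.085 and Sucla2 -0.042 between genotypes. With the length trend removed they were Pdhb 0.014 and Suclg1 0.011 in culture and Pfkfb3 0.054 between genotypes. With the GC trend removed they were Hk1 -0.011, Ldhb -0.012, Pdhb 0.016, Mdh1 0.011 and Mdh2 -0.12 in culture and Gapdh 0.030, Eno1 0.079 and Cs -0.022 between genotypes. Ranges over left-out libraries that crossed 0 were, in culture, Hk2 -0.43 to 0.27, Ldhb -0.43 to 0.53, Pdhb -0.27 to 0.066, Suclg1 -0.25 to 0.015, Fh1 -0.0055 to 0.28, Mdh1 -0.32 to 0.0082 and Mdh2 -0.19 to 0.31. Between genotypes they were Gpi1 -0.26 to 0.0063, Pfkm -0.46 to 0.14, Pfkfb3 -0.22 to 0.10, Gapdh -0.26 to 0.15, Pgam1 -0.042 to 0.19, Eno1 -0.25 to 0.066, Pdk3 -0.55 to 0.036, Pdk4 -0.13 to 0.42, Pdhb -0.17 to 0.45, Cs -0.16 to 0.18, Aco1 -0.61 to 0.049, Idh1 -0.29 to 0.047, Idh2 -0.23 to 0.043, Ogdh -0.18 to 0.31 and Sucla2 -0.17 to 0.42. The Aldoc to Aldoa difference in culture became 0.47 with a pseudocount of 0.1. The Sucla2 to Suclg2 difference in culture ranged from -0.17 to 0.32 and the Idh2 to Idh1 difference between genotypes from -0.12 to 0.31. With 3 mice, within-mouse ratios cannot go below an exact p of 0.25. Depth is unknown, so precision rests on 3 libraries per group, and genes near 1 RPM such as Aldoc and Eno2 have little weight.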
